A study of Mus musculus with 6 samples.

Results

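Genes of germ cells and of meiosis were examined in branchial arch 1, the embryonic tissue of the jaws, which contains no gonad. The members are 40 genes named by hand for their roles in the germ line, and they were chosen with earlier results of these arrays known. They were thus in part selected on the difference between the groups compared here, so that their differences and the counts of members called are given as a description and support nothing. Of the 40 genes, 39 had a probe set (a group of array probes for 1 transcript) with that single symbol, among 18194 genes measured. Tdrd6, a Tudor-domain gene of the germ line, had none and was not analysed here. The brightest probe set, by its mean on the 6 arrays, stood for each gene.

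The samples are single first arches of mouse embryos at embryonic day 11.5, with 1 arch and 1 array per embryo. By the titles, labelled-mutant embryos carried a Wnt1-Cre transgene and lox alleles of Ezh2 on both chromosomes. Labelled-control embryos carried the same lox alleles without the transgene. Ezh2 encodes the methyltransferase of Polycomb repressive complex 2 (PRC2). Wnt1-Cre acts in the neural crest lineage, so arch epithelium, vessels, blood and the muscle core keep the gene by design. Signals are on a log2 scale on which every array had a 25th percentile of 4.33 and a median of 5.81. All differences are labelled mutant minus labelled control.

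The labels could not be checked by the targeted gene. Ezh2 read 11.66 ± 0.01 in the labelled-mutant and 11.63 ± 0.15 in the labelled-control arches (SD, n = 3 each), and the place of its probe set relative to the deleted part is not known here. Hoxa9, a classical PRC2 target that is silent in the normal jaw arch, read 4.21 ± 0.36 in the labelled-mutant arches against 11.28 ± 0.37 in the labelled-control arches (SD, n = 3 each), which goes against the labels. The groups are therefore called by their labels throughout. Xist read 13.03 ± 0.10 in the labelled-mutant and 5.62 ± 0.15 in the labelled-control arches, and Kdm5d on the Y chromosome read 2.95 ± 0.13 in the labelled-mutant and 9.18 ± 0.06 in the labelled-control arches (SD, n = 3 each). Uty, also on the Y chromosome, read 3.23 ± 0.12 in the labelled-mutant and 8.18 ± 0.11 in the labelled-control arches (SD, n = 3 each). All labelled-mutant arrays thus had a female and all labelled-control arrays a male pattern, so embryo sex and label cannot be told apart for any gene below. All 39 members lie on autosomes. Of 10 markers of arch mesenchyme, 0 lay below the 25th percentile in both groups.

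Germ cells set aside a separate gene programme. RNA-binding proteins and helicases hold germ cell transcripts for translation or decay, the piRNA pathway silences transposons with small RNAs bound to Piwi proteins in granules organised by Tudor-domain proteins, and meiosis adds its own cohesins, a synaptonemal complex that joins homologous chromosomes, and a recombination machinery. In somatic tissue some of these genes, but not all, are kept silent by DNA methylation of CpG-rich promoters or by a variant Polycomb complex. Its subunits include E2F6 and the pair MGA and MAX. E2F6 recognises a GC-rich E2F motif, and MGA with MAX recognises the E-box CACGTG.

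The promoters are printed, to show where these letters occur and where they do not, for the members with the largest differences that have an entry in RefSeq's promoter table (build GRCm38.p6). Each run is the 250 bases before the listed transcription start, 5′ to 3′ on the gene's strand. Capitals mark the E-box CACGTG and the E2F core GCGGGA or its reverse complement TCCCGC. Tdrd7 has 3 listed starts, of which the most upstream is shown.
Ddx43, chr9:78395527-78395776, + strand: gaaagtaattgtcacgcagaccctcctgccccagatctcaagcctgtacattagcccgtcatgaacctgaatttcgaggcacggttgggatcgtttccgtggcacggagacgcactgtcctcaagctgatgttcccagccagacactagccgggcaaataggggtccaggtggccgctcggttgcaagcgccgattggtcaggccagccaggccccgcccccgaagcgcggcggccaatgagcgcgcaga
Meioc, chr11:102665335-102665584, + strand: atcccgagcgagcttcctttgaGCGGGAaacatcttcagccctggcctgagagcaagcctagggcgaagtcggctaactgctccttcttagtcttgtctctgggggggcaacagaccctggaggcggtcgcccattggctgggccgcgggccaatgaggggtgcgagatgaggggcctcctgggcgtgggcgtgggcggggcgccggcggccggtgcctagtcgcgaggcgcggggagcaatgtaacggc
Rbm46, chr3:82876484-82876733, - strand: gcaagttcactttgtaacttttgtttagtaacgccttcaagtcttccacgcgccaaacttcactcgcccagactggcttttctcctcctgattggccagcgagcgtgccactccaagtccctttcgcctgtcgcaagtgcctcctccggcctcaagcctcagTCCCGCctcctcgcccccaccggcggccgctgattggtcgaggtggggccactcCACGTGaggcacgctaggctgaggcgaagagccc
Tdrd7, chr4:45965085-45965334, + strand: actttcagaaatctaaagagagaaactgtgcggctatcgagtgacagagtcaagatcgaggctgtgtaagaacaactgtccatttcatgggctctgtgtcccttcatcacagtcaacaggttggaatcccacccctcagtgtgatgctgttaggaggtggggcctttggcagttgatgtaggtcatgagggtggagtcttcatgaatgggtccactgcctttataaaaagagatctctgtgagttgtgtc
Ddx4, chr13:112652311-112652560, - strand: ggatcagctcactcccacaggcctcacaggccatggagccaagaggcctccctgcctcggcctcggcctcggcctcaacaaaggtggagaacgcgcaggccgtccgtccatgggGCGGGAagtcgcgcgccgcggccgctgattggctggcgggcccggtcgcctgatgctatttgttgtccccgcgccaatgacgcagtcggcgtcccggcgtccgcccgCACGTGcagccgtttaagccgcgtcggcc
Rbm46 and Ddx4 hold both motifs, with the E-box 34 bases before the start in Rbm46 and 29 bases before it in Ddx4. Meioc holds the E2F core alone. Neither motif was found in the windows of Ddx43 and of the upstream start of Tdrd7.

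Over all members, 35 genes had an entry, with 43 promoters in all. The E-box was present in 19 of the 43, or 44.2%, against 6.02% of all 32851 promoters read over the same length. The E2F core was present in 16 of 43, or 37.2%, against 16.9% of all promoters. Member promoters were also richer in CpG. Of the 43, 72.1% reached a ratio of observed to expected CpG of 0.6, against 34.0% of all promoters. Among promoters above that ratio, the E-box was in 48.4% of 31 member promoters and 9.49% of all, and the E2F core in 45.2% and 37.5%. The motifs occurred both in members called below and in the others. The E-box was in 3 of the 10 promoters of the called members and in 16 of the 33 promoters of the others, and the E2F core in 5 of 10 and 11 of 33. Listed starts of a gene are counted separately here. The 10 promoters belong to 8 genes, and Tdrd7, with neither motif at any start, gives 3 of them. A match is a description of letters and not of binding.

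Most of these genes did not pass the test, and those that did were lower in the labelled-mutant arches. A member is called where its adjusted p in the fit over all genes was below 0.05 (limma, Benjamini-Hochberg over 18194 genes). Of 39 members 9 were called lower, 0 higher and 30 were not called with limma, against 9 lower and 3 higher at an unadjusted p under 0.05. Over all genes 5.53% were called, 4.30% lower and 1.23% higher. The median difference of the 39 members was -0.05, against 0.02 over all genes. In 13 members the 3 arrays of a group did not overlap those of the other, 10 lower and 3 higher in the labelled-mutant arches, where 24.9% of all genes did not overlap, 11.9% lower and 13.0% higher. In 13 members (33.3%) the mean lay below the 25th percentile in both groups, which are called low here, against 15.4% of all genes. By the higher of the group means, the members nearest that line of 4.33 were Ddx4 below it, with means of 3.18 in the labelled-mutant and 4.12 in the labelled-control arches, and Syce1 above it, with means of 4.33 in the labelled-mutant and 4.48 in the labelled-control arches. In bulk tissue, fewer cells of a type and less RNA per cell cannot be told apart.

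**Figure D1:**
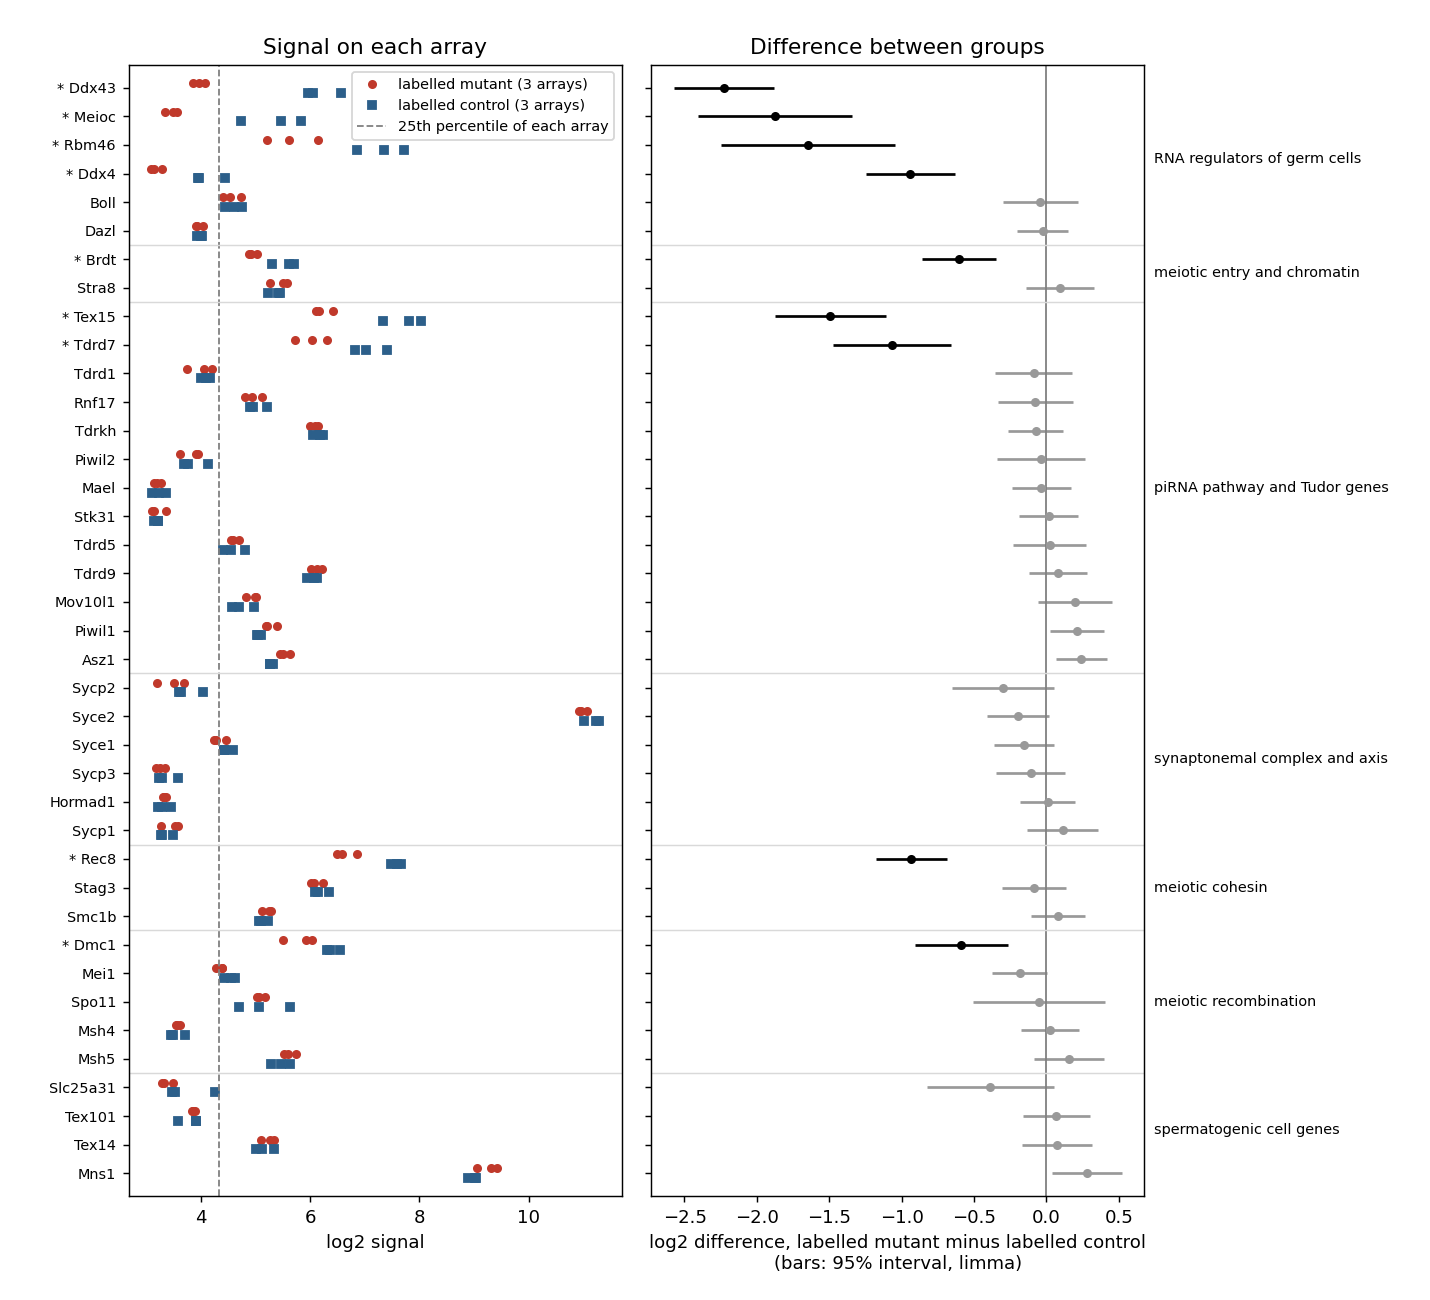
Left, log2 signal of each of the 39 measured members on each of the 6 arrays (circles labelled mutant, squares labelled control), with the 25th percentile of each array dashed. Right, the log2 difference between group means with its 95% interval from limma. Stars and black points mark the 9 members called. They lie between -2.23 and -0.59, whereas the 30 others lie between -0.39 and 0.28.

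The RNA regulators held the largest differences. Ddx43, a DEAD-box RNA helicase of spermatogenic cells, read 4.08, 3.97 and 3.86 in the labelled-mutant arches against 6.06, 6.57 and 5.96 in the labelled-control arches. The groups were 1.88 apart at their nearest arrays. The difference was -2.23 with a standard error of 0.15, or 4.68-fold lower. The labelled-mutant arrays all lay below the 25th percentile, where signals hold mostly background, so the fold could be larger or smaller than the RNA difference.

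Meioc, a partner of the RNA helicase Ythdc2 that keeps germ cells in meiotic prophase, read 3.35, 3.50 and 3.57 in the labelled-mutant arches, against 5.83, 5.47 and 4.74 in the labelled-control arches. All labelled-mutant arrays were again below the 25th percentile and no labelled-control array was. The difference was -1.87 with a standard error of 0.23. Rbm46, an RNA-binding protein needed for meiotic entry and found with Meioc and Ythdc2 in mouse germ cells, read 5.21, 5.61 and 6.15 in the labelled-mutant arches, against 7.71, 7.35 and 6.85 in the labelled-control arches. Both groups were clear of the low end, and the nearest arrays were 0.70 apart. The difference was -1.65 with a standard error of 0.26, or 3.13-fold lower. Ythdc2 itself, which is no member and is widely expressed, read 8.40 ± 0.04 in the labelled-mutant and 8.53 ± 0.09 in the labelled-control arches (SD, n = 3 each) and was not called (limma, Benjamini-Hochberg adjusted p = 0.42).

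Ddx4, the mouse Vasa helicase and a standard marker of germ cells, read 3.09, 3.15 and 3.29 in the labelled-mutant arches against 4.43, 3.96 and 3.95 in the labelled-control arches. Only labelled-control array 1 exceeded the 25th percentile. The difference of -0.94 (standard error 0.13) therefore lay almost wholly within the range of low signals. Dazl, the RNA-binding protein that licenses germ cells, read 3.92 to 4.05 in the labelled-mutant arches and 3.93 to 4.03 in the labelled-control arches. It was low on every array and the groups overlapped. Boll, its relative in later spermatogenesis, read 4.41 to 4.73 in the labelled-mutant and 4.44 to 4.76 in the labelled-control arches, and overlapped as well.

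Of the genes of meiotic entry and chromatin, Brdt was called and Stra8 was not. Brdt, a testis member of the BET bromodomain family, read 5.03, 4.87 and 4.91 in the labelled-mutant arches against 5.30, 5.71 and 5.61 in the labelled-control arches. The nearest arrays were 0.28 apart, and the difference was -0.60 with a standard error of 0.11. Stra8, the retinoic acid-induced gene of meiotic entry, had a difference of 0.09 with a 95% interval of -0.14 to 0.33. The groups overlapped, and the interval holds 0.

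Tex15 and Tdrd7 were the called members among 13 measured piRNA and Tudor genes. Tex15, needed for silencing of transposons and for meiotic repair in the mouse, read 6.42, 6.17 and 6.11 in the labelled-mutant arches against 7.33, 7.82 and 8.02 in the labelled-control arches. No array of either group was near the low end, and the nearest were 0.92 apart. The difference was -1.49 with a standard error of 0.17, or 2.81-fold lower.

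Tdrd7, a Tudor-domain gene of germ cell granules that also acts in the lens, read 6.31, 5.72 and 6.03 in the labelled-mutant arches against 6.83, 7.03 and 7.40 in the labelled-control arches. The groups did not overlap, and the difference was -1.07 with a standard error of 0.18. Its second probe set stayed between 3.76 and 4.01 on all arrays and had a difference of 0.11. The other 11 measured genes of this group were not called and had differences between -0.09 and 0.24.

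Among these 11, Piwil2, Mael, Stk31 and Tdrd1 were low in both groups. Mael, a granule protein of the piRNA pathway, read 3.14 to 3.27 in the labelled-mutant and 3.11 to 3.36 in the labelled-control arches. Tdrd9, Tdrkh, Tdrd5, Rnf17 and Mov10l1 lay above the 25th percentile with overlapping groups. Tdrkh, a mitochondrial Tudor protein of piRNA processing, read 6.01 to 6.15 in the labelled-mutant and 6.05 to 6.24 in the labelled-control arches.

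Asz1 and Piwil1 did not overlap but were not called. Asz1, a mitochondrial scaffold of the pathway, read 5.45, 5.50 and 5.63 in the labelled-mutant arches against 5.26, 5.26 and 5.33 in the labelled-control arches. Its difference was 0.24 with a 95% interval of 0.06 to 0.42 before any adjustment for the number of genes. Piwil1, the Piwi protein of spermatocytes, read 5.22, 5.19 and 5.40 in the labelled-mutant arches against 5.09, 5.05 and 5.03 in the labelled-control arches. The gap between the nearest arrays was 0.12 for Asz1 and 0.10 for Piwil1, both smaller than for any called member, where the smallest was 0.28.

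Most genes of meiotic chromosome structure were low in both groups. Sycp1, Sycp2 and Sycp3, which build the synaptonemal complex, and Hormad1, which marks unsynapsed axes, read 3.18 to 4.04 over all 6 arrays and were low in both groups. Syce1, a central element protein, had a difference of -0.15 with a 95% interval of -0.36 to 0.05. Syce2, its partner in the central element, read 10.92 to 11.07 in the labelled-mutant arches against 11.01 to 11.29 in the labelled-control arches. It was the one member of this group above the 75th percentile of 8.17, on every array. Its groups overlapped, and of the 6 genes none was called.

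Of the meiotic cohesins, Rec8 was called and the others were not. Rec8, the meiotic kleisin that replaces Rad21, read 6.50, 6.59 and 6.85 in the labelled-mutant arches against 7.59, 7.67 and 7.47 in the labelled-control arches. The groups were 0.62 apart, and the difference was -0.93 with a standard error of 0.11, or 1.91-fold lower. Smc1b and Stag3, its partners in meiotic cohesin, had differences of 0.08 (95% interval -0.11 to 0.27) and -0.09 (-0.31 to 0.14).

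Dmc1 was the one recombination gene called. Dmc1, the strand-exchange recombinase of meiosis, read 6.03, 5.50 and 5.92 in the labelled-mutant arches against 6.31, 6.36 and 6.55 in the labelled-control arches. The nearest arrays were 0.28 apart, and the difference was -0.59 with a standard error of 0.14. A second, dimmer probe set read 3.90, 4.01 and 4.25 in the labelled-mutant arches against 4.72, 4.99 and 5.35 in the labelled-control arches, and also did not overlap.

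The other recombination genes were not called. Spo11, which makes the meiotic breaks, spread from 4.71 to 5.64 among the labelled-control arches alone, so that its difference of -0.05 had a 95% interval of -0.50 to 0.41. Msh4, of the crossover pathway, was low on all arrays, and its partner Msh5 had a difference of 0.16 (95% interval -0.08 to 0.40). Mei1, a factor for meiotic breaks, read 4.28, 4.38 and 4.39 in the labelled-mutant arches against 4.63, 4.42 and 4.55 in the labelled-control arches, a gap of only 0.04.

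None of the 4 spermatogenic cell genes was called. Mns1, a gene of sperm flagella that also serves motile cilia, read 9.06, 9.30 and 9.42 in the labelled-mutant arches against 9.05, 8.88 and 9.01 in the labelled-control arches. The nearest arrays differed by only 0.01, and the difference was 0.28 with a 95% interval of 0.04 to 0.52 before adjustment. Slc25a31, the germ cell form of the ADP/ATP carrier, had the largest difference among members not called, -0.39. It rested on labelled-control array 2 at 4.26, since all other arrays read 3.29 to 3.53. Tex14, of the bridges between spermatogenic cells, and Tex101, a surface protein of spermatocytes, had differences of 0.07 each, with Tex101 low in both groups.

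The highest and lowest arrays of each group differed among the 9 called genes. This order does not show on which array a call rested. Among the labelled-control arches, array 3 was the lowest of its group for 5 of the 9 and the highest for 3, and array 2 was the lowest for 0. Among the labelled-mutant arches, array 1 was the highest for 5 and the lowest for 4. Rbm46 and Meioc were lowest in labelled-control array 3, in which Tex15 and Tdrd7 were highest. Leaving out labelled-control array 2 gave the fewest called members, 6, without Rbm46, Brdt and Dmc1. Both Brdt and Dmc1 were also lost without labelled-mutant array 2 and without labelled-mutant array 3, and Dmc1 without labelled-control array 1 or 3. With signals floored at each array's 20th percentile, only Ddx43 and Rec8 stayed called. The signals of Rbm46, Tex15, Tdrd7, Brdt and Dmc1 lay above that floor on every array, and their differences were the same with it. Their calls could be lost only through steps that limma shares over all genes, the moderation of variances and the adjustment of p.

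Of the 10 members with more than 1 probe set, 4 were called. The 2 probe sets of Rbm46 and of Dmc1 ran the same way, at -1.65 and -1.48 for Rbm46 and at -0.59 and -0.97 for Dmc1. Those of Brdt and Tdrd7 did not. The other probe sets of Brdt had differences of -0.07 and 0.12, and with the mean of its probe sets Brdt fell by 0.18 and was no longer called. What transcript each probe set reads was not examined here.

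**Figure D2:**
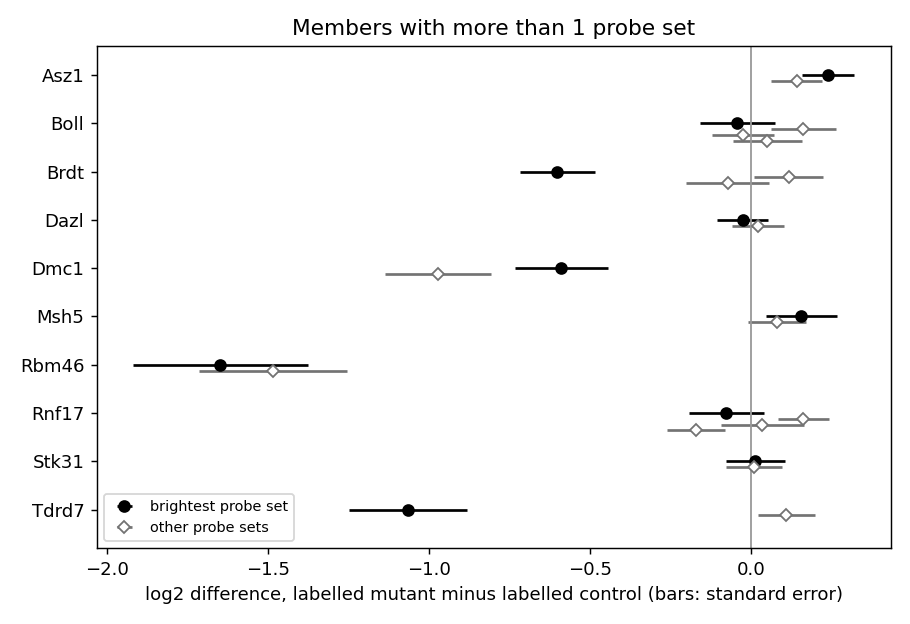
Log2 difference, labelled mutant minus labelled control, of every probe set of the 10 members that have more than 1, with standard errors from a limma fit over all probe sets. Filled circles are the brightest probe sets, which stand for the gene, and open diamonds the others. Rbm46 and Dmc1 have all probe sets left of 0, while Brdt and Tdrd7 have only the brightest far from 0.

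Other genes of the same programme, from textbook lists that hold no member, were seldom called. Of 82 such genes measured in 5 lists, 2 were called higher and 2 lower (4.88%), beside 5.53% of all genes, with a median of 0.03. The members were left out of these lists and had been chosen with earlier results known. This share is therefore a description and supports nothing. Of 22 other meiotic prophase genes only Spdya was called. Spdya, an activator of Cdk2 at meiotic telomeres, fell by 0.55 (standard error 0.12, adjusted p = 0.0338 with limma). Mnd1 and Ccna1 had the next largest statistics, with differences of 0.33 and 0.21, and were not called (adjusted p = 0.0938 and 0.243 with limma). Of 16 other piRNA and nuage genes 0 were called with limma and 2 had an unadjusted p under 0.05, with Tex19.1, Ddx25 and Gpat2 at 0.32, -0.24 and 0.32.

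Late stages were represented by 18 spermatid and 16 oocyte genes. Hspa2, a chaperone of spermatocytes that other tissues also express, fell by 0.41 (standard error 0.08; limma, Benjamini-Hochberg adjusted p = 0.0249), and the other 17 spermatid genes were not called, with Ldhc and Acrv1 at 0.22 and 0.19. Lhx8, an oocyte factor that is also a regulator of first arch mesenchyme, rose by 0.54 (standard error 0.11; adjusted p = 0.0289 with limma). The other 15 oocyte genes were not called, with Zar1 at -0.30 and Sohlh2 at 0.25.

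Of 11 measured markers of primordial germ cells, 2 were low in both groups and 1 was called. Of all genes 15.4% were low in both groups. The markers not low in both groups ran from Pou5f1 to Tfap2c. Pou5f1 had means of 4.29 in the labelled-mutant and 4.36 in the labelled-control arches, and Tfap2c of 8.93 and 8.95. Nanog and Prdm14 were low in both groups, at 3.63 ± 0.08 and 3.43 ± 0.11 in the labelled-mutant and 3.68 ± 0.27 and 3.45 ± 0.18 in the labelled-control arches (SD, n = 3 each). Of 11 markers measured only Kit was called, which rose by 0.65 (standard error 0.14; limma, Benjamini-Hochberg adjusted p = 0.0337) and which melanoblasts and blood cells also express. Tex19.1 and Dppa3 followed at 0.32 and 0.12, not called. The mean log2 signal of the 11 markers was 5.56 to 5.59 in the labelled-mutant and 5.43 to 5.60 in the labelled-control arches, with overlapping groups.

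Among 23 measured genes listed here as repressors of germ cell genes, 1 was called. The list was not limited to genes with that role alone. Max, the partner of Mga on the E-box, rose by 0.58, with 7.17 ± 0.05 in the labelled-mutant and 6.59 ± 0.09 in the labelled-control arches (SD, n = 3 each; limma, Benjamini-Hochberg adjusted p = 0.00426). E2f6 had a difference of 0.04 and Mga of -0.07, while the subunits Pcgf6 and L3mbtl2 had differences of 0.19 and 0.20, and none of these was called. Kdm5c, an X-linked demethylase, and Dnmt3a, a DNA methyltransferase, had differences of 0.30 and -0.28 and were not called (adjusted p = 0.137 and 0.163 with limma). The somatic counterparts of the meiotic genes were examined too. Of 20 mitotic paralogues and shared recombination genes 0 were called with limma and 3 had an unadjusted p under 0.05, all higher, and the largest statistics were those of Brca1, Sgo1 and Slc25a5, with differences of 0.25, 0.18 and 0.20.

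**Figure D3:**
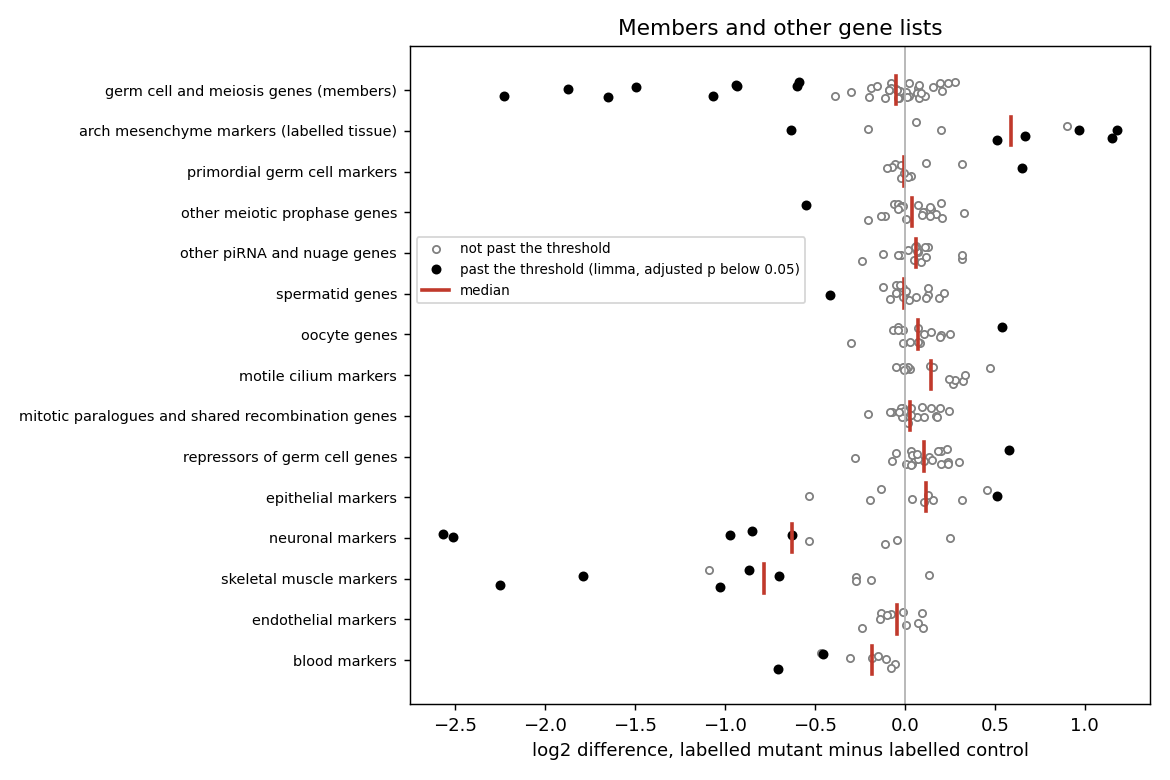
Log2 difference, labelled mutant minus labelled control, of each gene in the member list and in 14 other lists, with filled points for genes past the threshold and a bar at each list's median. The 39 measured members have a median of -0.05, and the called ones among them lie between -2.23 and -0.59. The medians of the neuronal and skeletal muscle lists lie at -0.63 and -0.78.

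Markers of some other cell types moved in the same direction as the called members. Of 9 neuronal markers 5 fell and 0 rose, among them Nefl, Nefm and Isl1 with differences of -2.56, -2.51 and -0.85 (limma, Benjamini-Hochberg adjusted p = 2.43e-04, 4.25e-04 and 0.0049). Their mean log2 signal was 6.76 to 7.06 in the labelled-mutant and 7.79 to 7.93 in the labelled-control arches. Of 10 skeletal muscle markers 5 fell and 0 rose, among them Myog, Msc and Myl1 with differences of -2.25, -0.70 and -0.87, and the list had a mean of 6.27 to 6.97 in the labelled-mutant and 7.18 to 7.56 in the labelled-control arches. No marker of either list lay below the 25th percentile in both groups. Of 9 blood markers 2 fell, Slc4a1 and Ptprc, and Csf1r was not called, with list means of 9.51 to 9.73 in the labelled-mutant and 9.68 to 10.11 in the labelled-control arches. Of 10 epithelial markers 1 rose, Krt8, while Krt18 and Cldn6 were not called. Of 10 endothelial markers 0 were called with limma and 0 had an unadjusted p under 0.05, with Tie1, Egfl7 and Tek at -0.24, -0.14 and -0.13. Among the arch mesenchyme markers Dlx5, Dlx2, Dlx1, Msx1 and Hand2 rose and Pdgfra fell. The part of these cell types in the differences of the germ cell genes was not tested.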

How the data were processed

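Total RNA of 6 samples was labelled with biotin, per the labels, and read on Affymetrix mouse arrays, per the platform annotation. The deposited values are log2 signals, 1 per probe set and array. The log2 scale was inferred from the values, and the quartiles and extremes of the deposited values were equal to 2 decimals on the 6 arrays. A common distribution of this kind hides any shift of all genes. The background correction and software were not given in the sources used here. Of 45101 probe sets 34958 had 1 symbol in the platform annotation, 932 several and 9211 none. No filter on dim genes was applied. Differences were fitted with limma 3.58.1 (R 4.3.3) over 18194 genes with no covariate (two-sided, Benjamini-Hochberg adjusted p under 0.05). A run on simulated arrays with independent errors checked the code only, and says nothing on the calls given here. Counts at an unadjusted p under 0.05 are given without the same share over all genes. The number of arrays limits the precision. The members and lists were chosen with earlier results of these data known. Every array value is given for members that were called, differed by at least 0.5, or did not overlap while above the 25th percentile in a group, and of each list the 3 genes with the largest moderated t are named. Genes named beyond this rule were chosen after their values were seen. Promoters are RefSeq's (GRCm38.p6), matched by symbol for 35 of 40 members. Alternatives were a replicate block, other probe set rules, centring, repeated quantile normalization, a floor, a dim filter, trend with robust settings, autosomal genes only, and leaving out each array.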

Additional observations from a re-analysis of the deposited data

How the results depend on the processing

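Each difference of the 13 members chosen by the naming rule kept its sign under every alternative in which it was fitted, 14 for Ddx4 and 15 for each of the others. For most alternatives this was fixed in advance. The groups of all 13 do not overlap, so leaving out an array cannot reverse the sign. The block, the dim filter, trend with robust settings and autosomal genes only leave the difference itself unchanged. The kept signs therefore support nothing. Of 9 called members 2 remained with signals floored at the 20th percentile, and leaving out single arrays gave 6 to 9. The count over all genes was 1007, against 329 with the floor, 657 with a replicate block and 435 to 1021 with single arrays left out. The 24 called genes of the comparison lists became 14 with the block, 13 with the most variable probe set, 9 with the floor and 10 to 23 with single arrays left out. The replicate block left 7 called members, without Brdt and Dmc1. Same-numbered arrays did not deviate together (correlations over genes of -0.21, -0.12 and -0.07), so the numbers were not taken as pairs. Members without overlap numbered 13, with 13 to 19 when single arrays were left out and 12 to 13 under the other alternatives. Leaving out an array can only keep or raise this number. The same share over all genes is not given for these alternatives, so the rise to 19 supports nothing. Centring and repeated quantile normalization changed no count, and the filter on dim genes removed Ddx4. Apart from what the settings do by construction, the causes of lost calls were not tested. Signals below the 25th percentile cannot show whether a gene is expressed.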

Other observations

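Mns1 also serves motile cilia, and markers of motile cilia were examined beside it. Of 14 measured, 0 were called with limma, and 6 had an unadjusted p under 0.05, all higher. The share of all genes at that unadjusted p is not given here, so the 6 cannot be set beside it. The 3 with the largest statistics were Dnaic1, an outer dynein arm gene, Rsph1, a radial spoke gene, and Rfx3, a regulator of ciliary genes, with differences of 0.32, 0.28 and 0.27 (limma, Benjamini-Hochberg adjusted p = 0.0662, 0.0693 and 0.115). In all 3 the labelled-mutant arrays lay above the labelled-control arrays, as in 13.0% of all genes. Their choice by the size of the statistic favours such a pattern. Ccdc40 had the largest difference of the list, 0.475, without overlap of its groups (adjusted p = 0.131 with limma). Tekt4, Hydin, Dnah11 and Dnah5 had differences of 0.34, 0.24, 0.16 and 0.14, and of these only Dnah11 did not overlap. Foxj1, Ccdc39, Tekt1, Spag6, Ccno and Rsph9 had differences of -0.01, 0.02, 0.01, -0.05, 0.03 and -0.005. The median of the list was 0.15, and its mean log2 signal was 5.70 to 5.78 in the labelled-mutant and 5.55 to 5.61 in the labelled-control arches.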
